A study of Mus musculus with 48 samples.

Results

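The transcripts described here are the 100 that were most enriched when polysomes were pulled down from mice that carry no tagged ribosomes. They were chosen from a single pair of control libraries, an immunoprecipitate (IP) and its depleted supernatant from the preoptic area of young mice of the genotype Floxed L10a-GFP, which lack Cre recombinase. Of 23284 genes in the table, 7817 had at least 20 CPM (counts scaled to the library total) in that IP, and 7648 were left after symbols of neurofilament, ion channel, ribosomal protein and complex I subunit genes had been set aside. The 100 were the top of these by the log2 ratio of IP over supernatant, computed with 0.5 CPM added to each. Because this ratio chose them, their high level in the IP without Cre is a description and not a result. The rule does not use the 46 libraries of mice with Cre, in which the members were tested, although the set was drawn up with earlier results of these data known. Both control libraries are from young mice, so transcripts retained mainly in adult pulldowns could be left out of the set.

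Those 46 libraries came from 8 groups of female mice. Males carrying Cre in neurons that make gonadotropin-releasing hormone (GnRH), the peptide that drives the reproductive axis, had been bred to females with a floxed stop ahead of L10a-GFP, a ribosomal protein tagged with green fluorescent protein. IP and supernatant were sequenced from adult mice exposed before birth to dihydrotestosterone (DHT, an androgen; 6 IP and 6 supernatant libraries), adult mice exposed to vehicle (5 and 5), young DHT mice (6 and 6) and young vehicle mice (6 and 6). All of these groups carried both Cre and the floxed L10a-GFP allele, and adults were collected in diestrus. The control without Cre was labelled young and NoGFP, and the label gives no prenatal exposure for it. The labels do not say whether a library came from a single animal or a pool.

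Pulling down a tagged ribosome brings along the messenger RNAs it is translating, so that Cre in a given cell type selects that cell type's transcripts from whole tissue. RNA and protein complexes that stick to the beads or the antibody come down as well. A mouse that lacks Cre has no tagged ribosomes to capture, and its pulldown shows what is retained without the tag.

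Some members that head the ranking share a long run of the triplets CAG and CAA, the codons of glutamine. The 4 longest runs that lay in frame within a single coding exon are shown 5′ to 3′ on the coding strand, from the GENCODE M21 transcripts (GRCm38, the mm10 build that the submitters' processing notes name), with CAG triplets in capitals and CAA triplets in lower case. Bahcc1, a chromatin protein with a bromo-adjacent homology domain and rank 1 of 100, carried 93 bases at chr11:120274556-120274648 on the plus strand. Mn1, a transcriptional coactivator of rank 11, carried 78 bases at chr5:111419699-111419776 on the plus strand. Tcf20, a nuclear coregulator of rank 8, carried 60 bases at chr15:82856673-82856732 on the minus strand. Prrc2b, a proline-rich RNA-associated protein of rank 74, carried 45 bases at chr2:32206536-32206580 on the plus strand.
Bahcc1: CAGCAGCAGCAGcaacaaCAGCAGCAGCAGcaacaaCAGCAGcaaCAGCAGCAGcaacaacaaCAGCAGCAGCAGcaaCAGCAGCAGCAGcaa
Mn1: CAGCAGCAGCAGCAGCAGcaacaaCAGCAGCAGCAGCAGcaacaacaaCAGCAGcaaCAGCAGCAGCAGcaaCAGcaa
Tcf20: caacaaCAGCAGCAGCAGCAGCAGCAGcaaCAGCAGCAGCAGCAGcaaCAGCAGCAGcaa
Prrc2b: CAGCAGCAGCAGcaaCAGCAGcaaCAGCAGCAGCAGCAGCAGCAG

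A run of at least 8 such triplets was found on the sense strand of the longest transcript of 9 of 98 members with a sequence (9.18%), against 84 of the 7495 other genes at the same floor (1.12%). At 6 triplets the shares were 13.3% and 2.07%, and at 10 triplets 5.10% and 0.627%. The members' transcripts were also longer, with a median of 5455 bases against 3333 bases in the other genes, and 54.1% of members against 20.7% of the others reached 5000 bases. Among transcripts of at least 5000 bases, 8 of 53 members (15.1%) and 44 of 1550 others (2.84%) held such a run. In Tnrc18 and Kdm6b the run of 24 bases lay in the coding sequence but not in the glutamine frame. The feature and its minimum length were chosen after the members had been seen, and the shares are a description with no test.

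Before any comparison, 10 of the libraries have to be set apart. They carry the last 10 sample numbers and are all from young mice, 5 IP libraries (3 DHT, 2 vehicle) and their 5 counterparts among the supernatants. The summed level of the 100 members was 6388, 8591 and 7140 CPM in the later-numbered young DHT IP libraries and 7769 and 5878 CPM in the later-numbered young vehicle ones, against 15364 to 21832 CPM (median 19610) in the 7 earlier-numbered young IP libraries. These sets did not overlap. The later-numbered supernatants, at 1721 to 1943 CPM, lay within or just under the 1762 to 2069 CPM of the earlier-numbered ones. All adult libraries and both libraries without Cre have earlier numbers. The control that chose the members is thus young and earlier-numbered, which favours higher sums in the earlier-numbered young IP libraries. The labels do not say what the numbers stand for. Counts by condition and by age that rest on the young IP libraries are given with and without the later-numbered ones. Calls over the mean of 4 conditions and for prenatal exposure are given with them only.

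Over all libraries the 100 members summed to 3760 to 11612 CPM in adult DHT IP (median 8577), 4121 to 11180 CPM in adult vehicle IP (median 7412), 6388 to 21205 CPM in young DHT IP (median 11978) and 5878 to 21832 CPM in young vehicle IP (median 17175). In the IP without Cre the sum was 24400 CPM, or 2.44% of the library. All 23 supernatants with Cre lay between 1721 and 2093 CPM, and the supernatant without Cre had 1965 CPM. Each of the 23 IP libraries thus held more of the set than any supernatant, and the IP libraries spread more widely among themselves than the supernatants did.

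**Figure D1:**
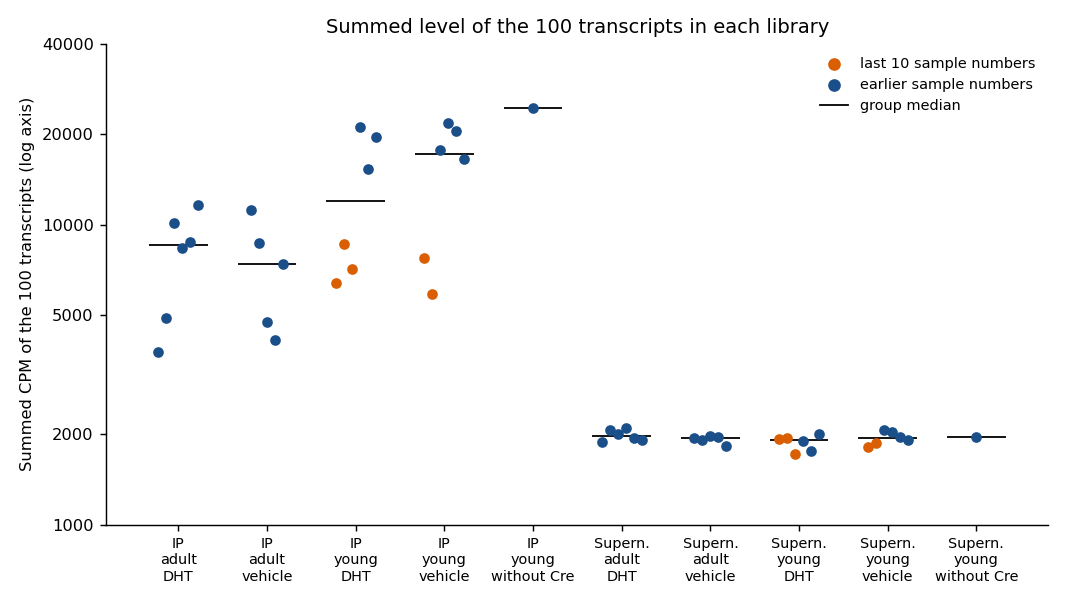
Summed CPM of the 100 transcripts in each library (points, log axis), by group, with the group median as a line. Later-numbered young IP libraries (orange, 5878 to 8591 CPM) sit below the earlier-numbered young ones (15364 to 21832 CPM), adult IP libraries spread from 3760 to 11612 CPM, and all supernatants lie between 1721 and 2093 CPM.

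In the control without Cre, Bahcc1 had 735 CPM in the IP (95% exact Poisson interval 726 to 745, counting error only), against 5.21 CPM in its supernatant (4.50 to 6.00), a log2 ratio of 7.01. Bcor, a corepressor of the Polycomb system, had 779 CPM in the IP against 5.75 CPM in its supernatant. Rai1, a chromatin regulator whose human gene is lost in Smith-Magenis syndrome, had 2579 CPM in the IP against 23.3 CPM in its supernatant. The other genes of the top 10 were Tnrc18, Yeats2, Prr12, Gse1, Tcf20, Jmjd1c and the nucleoporin Nup98, with log2 ratios of 6.41 to 5.33. Over the 100, the ratio ran from 1.93 to 7.01 with a median of 2.49, and the IP level ran from 20.2 to 2579 CPM with a median of 69.5 CPM. The last members inside the limit were Jarid2 (1.95), 9630013A20Rik (1.94), Rab3d (1.94), AI414108 (1.93) and Cln3 (1.93). Just outside it were Papd4 (1.92), Tead1 (1.92), Zfp282 (1.91), Zscan22 (1.91) and Cttnbp2nl (1.89), so the limit falls in a smooth decline and marks no gap.

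By function, 16 of the 100 were among the 74 chromatin and transcription regulators of a curated list that are in the table, and they hold 8 of the 10 highest ratios (60 of the 7648 candidates, or 0.785%, are on the list, which was drawn up with these results known and so lends the theme no independent weight): Bahcc1, Bcor, Rai1, Tnrc18, Yeats2, Prr12, Gse1 and Tcf20. The others included Mn1, the histone demethylase Kdm6b, the SWI/SNF subunit Arid1b, the remodeller Chd7, the corepressor Ncor1, and the 5-methylcytosine dioxygenases Tet2 and Tet3. Of the list of splicing and RNA-binding proteins (0.575% of the candidates), 3 of 46 were members: Son, a nuclear speckle scaffold, Tnrc6a, an Argonaute partner in microRNA silencing, and Prrc2b. Srcin1, a scaffold that regulates Src kinase at synapses, was the member from the synaptic list (0.392% of the candidates). Ubr4, a very large N-recognin ubiquitin ligase, was the member from the ubiquitin list (0.288%). No member came from the lists of GnRH neuron transcripts (0.0392% of the candidates), chaperones and heat shock (0.275%) or microtubule and axonal cytoskeleton (0.445%). The same held for nuclear and neuronal long noncoding RNAs (0.0915%), secretory granules (0.118%), and vesicle coat, membrane trafficking and lysosome (0.248%). None came from the 10 lists of cell type markers either. All lists hold only part of their class. The histone methyltransferase Suv420h2, the kinesin Kifc3 and the long noncoding RNA 9630013A20Rik are members that are on none of them. With shares this low among the candidates, absence from a set of 100 says little, and the absences are not read as a result. Several members are paralogs of each other, seen after the set had been drawn: Bahcc1 and Tnrc18, Rai1 and Tcf20, Gli2 and Gli3, Tet2 and Tet3, Kdm6a and Kdm6b, Chd7 and Chd9. The nuclear pore proteins Nup98, Ranbp2 and Pom121 are likewise named after their values were seen.

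In mice with Cre, 97 of the 100 members were higher in the IP than in the supernatant over the mean of the 4 conditions, and none was lower (edgeR quasi-likelihood test, Benjamini-Hochberg adjusted p below 0.05 over 16660 genes, of which 24.4% were called higher and 21.7% lower). The members' median log2 fold change was 1.55, against -0.00 over all genes tested. Bahcc1 was at 108 to 641 CPM in the 23 IP libraries (median 437) and at 4.15 to 8.07 CPM in the 23 supernatants (median 5.96), and no IP library came near a supernatant. Its log2 fold change came to 6.02 ± 0.20 (SE; adjusted p = 2.54e-27 in edgeR). Tnrc18 followed at 5.65 ± 0.21, Bcor at 5.40 ± 0.27, Yeats2 at 5.27 ± 0.19 and Rai1 at 5.11 ± 0.20, and Gse1, Nup98, Prr12, Tcf20 and Jmjd1c ran from 4.86 to 3.69. For 13 members every IP library with Cre lay above every supernatant, against 0.271% of 14035 genes at a mean of 1 CPM or more. The members not called were Ctns, the lysosomal cystine transporter, at 0.43 ± 0.19 (edgeR adjusted p = 0.0569), Zfp599 at 0.52 ± 0.36 (0.244) and 9630013A20Rik at 0.32 ± 0.21 (0.216).

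All 16 members on the list of chromatin and transcription regulators rose in the IP. Their log2 fold changes ran from 1.27 for Ncor1 to 6.02 for Bahcc1, with a median of 3.68. Of the 58 regulators of the same list that are no members, 17 rose, 17 fell and the median was -0.02. The 3 members on the list of splicing and RNA-binding proteins rose as well. They were at 1.97 ± 0.18 for Tnrc6a, 1.83 ± 0.12 for Son and 1.64 ± 0.10 for Prrc2b. Of the other 43 genes of that list 16 rose and 17 fell. Ubr4 rose by 2.33 ± 0.13 and Srcin1 by 1.06 ± 0.15 on the log2 scale.

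Hic2, a transcriptional repressor of the BTB zinc finger family, was the single member whose log2 fold change with Cre exceeded its ratio in the control. It was at 2.57 ± 0.27 against 2.48, an excess smaller than the SE. The first value is a TMM-scaled fit over the 4 conditions, the second a ratio from a single pair with 0.5 CPM added. The other 99 had a smaller value with Cre, and since the control's ratio chose the members, a drop is built into that comparison and says nothing of the tag. Between IP libraries, 51 members were lower in each of the 12 young IP libraries with Cre than in the IP without Cre, as were 9.47% of 14095 genes at a mean of 1 CPM or more. High values in that IP chose the members, so nothing is read from this count either. Nup98 had 239.6 to 307.5 CPM in the 7 earlier-numbered young IP libraries with Cre, and the 261 CPM of the IP without Cre lay among them. A130040M12Rik, a transcript not found in GENCODE M21, likewise had 202 to 271 CPM in those 7 and 263 CPM without Cre. By contrast Gnrh1, which is no member, had 1751 to 6817 CPM in the young IP libraries with Cre, against 61.6 CPM in the IP without Cre.

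**Figure D2:**
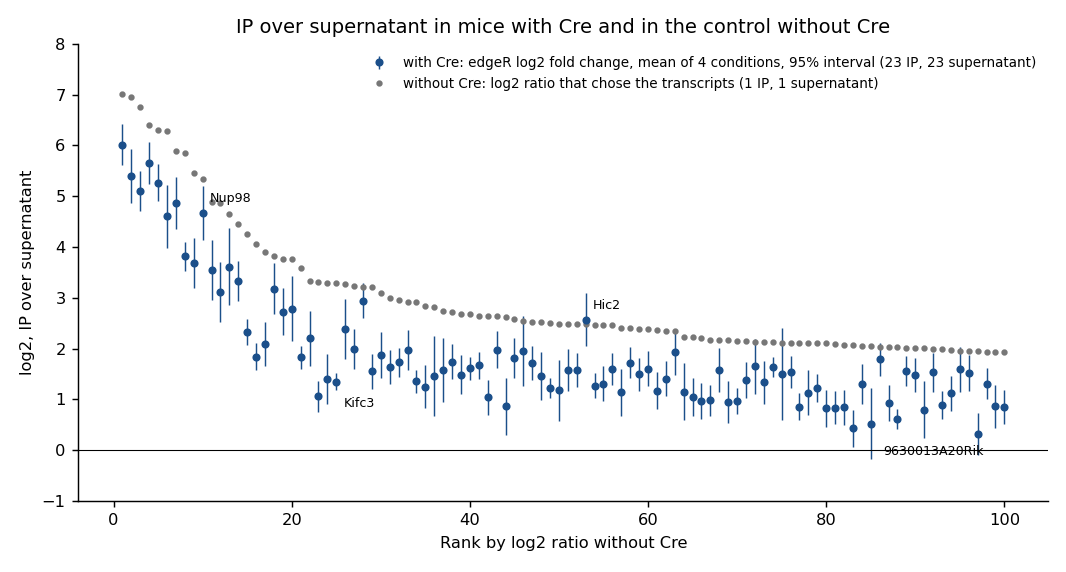
log2 of IP over supernatant for the 100 transcripts, ordered by their rank in the control without Cre. Blue points with 95% intervals are edgeR log2 fold changes over the 4 conditions with Cre, and grey points are the ratios without Cre that chose the transcripts. Only Hic2 has a blue point above its grey one, by less than its SE.

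Condition by condition, members higher in the IP numbered 66 in adult DHT mice (11.6% of all genes tested were called higher and 9.83% lower) and 64 in adult vehicle mice (12.8% and 11.2%). They numbered 79 in young DHT mice (10.7% and 9.21%) and 87 in young vehicle mice (11.3% and 10.5%), and no member was lower in any of the 4. The median log2 fold change of the members was 1.38, 1.36, 1.61 and 1.77 in that order. Without the later-numbered libraries the counts were 72 in adult DHT (10.9% of all genes higher, 10.6% lower), 68 in adult vehicle (11.4% and 12.4%), 86 in young DHT (4.15% and 5.23%) and 91 in young vehicle mice (6.76% and 8.59%), again with none lower. The members' median was then 2.21 in young DHT and 2.14 in young vehicle mice. With library totals in place of TMM scaling, 1606 genes were called higher and 2249 lower in adult vehicle mice, against 2132 and 1870, and 61 members stayed higher. Bahcc1 was at 5.94 ± 0.39 in adult DHT, 5.99 ± 0.42 in adult vehicle, 6.11 ± 0.39 in young DHT and 6.03 ± 0.39 in young vehicle mice. Without the later-numbered libraries it was at 6.97 ± 0.50 in young DHT and 6.42 ± 0.42 in young vehicle mice. Kifc3, a minus-end directed kinesin, was at -0.10 ± 0.17 in adult DHT and -0.18 ± 0.19 in adult vehicle mice, against 2.80 ± 0.18 in young DHT and 2.87 ± 0.18 in young vehicle mice.

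The difference between ages was then tested directly, as the IP enrichment in adult mice minus that in young mice. It was negative for 19 of the 100 members and positive for none (edgeR adjusted p below 0.05 over 16660 genes, of which 2.67% were called lower and 1.85% higher). With library totals as the scaling, 198 genes were called higher and 550 lower, against 308 and 445, and 20 members were lower. The members' median was -0.15 and that of all genes 0.02. The members were chosen from a young pair, a choice that favours falls over rises with age. The direction of the counts, here and in the age counts below, is therefore not read as a result. Kifc3 was at 49.4 to 93.8 CPM in the 11 adult IP libraries (median 66.6) and at 225 to 682 CPM in the 12 young ones (median 486). Its supernatants held 64.4 to 88.2 CPM in adult and 62.1 to 70.4 CPM in young mice, so the adult IP libraries stood at the level of the supernatant and no adult IP library overlapped a young one. The difference in enrichment was -2.97 ± 0.18 (edgeR adjusted p = 9.75e-17).

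A130040M12Rik behaved alike, with 19.5 to 50.7 CPM in adult IP libraries and 202 to 824 CPM in young ones, and a difference of -3.24 ± 0.30 (edgeR adjusted p = 1.96e-10). Srcin1 had 35.6 to 88.0 CPM in adult IP and 131 to 718 CPM in young IP, against 37.7 to 79.8 CPM in adult and 60.5 to 109 CPM in young supernatants, and its difference was -2.32 ± 0.30 (edgeR adjusted p = 9.88e-07). Ubr4 was at 61.6 to 219 CPM in adult IP (median 163) against 216 to 1094 CPM in young IP (median 669.5). In adult mice it was still higher in the IP than in the supernatant, at log2 1.28 ± 0.24 with DHT and 1.01 ± 0.26 with vehicle. Its difference was -2.36 ± 0.25 (edgeR adjusted p = 6.22e-09). The nuclear pore protein Pom121 (-2.75 ± 0.23), the actin-binding Shroom3 (-2.71 ± 0.64), Tcf20 (-2.52 ± 0.27), 4922501L14Rik (-2.43 ± 0.44), Mdm1, a microtubule-binding protein of centrioles (-2.22 ± 0.27), and Arid1b (-2.20 ± 0.34) complete the 10 largest differences. Of all 19, 10 in adult DHT mice and 12 in adult vehicle mice had an IP enrichment within 0.5 log2 of zero.

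The 19 were found at ranks 3 to 88 of the set, Rai1 and Yeats2 among them. Of the 16 members on the list of chromatin and transcription regulators 6 fell: Tcf20, Arid1b, Yeats2, Kdm6b, Rai1 and Ncor1. None of the 58 other regulators on that list changed in this test. Several top members gave no call. Bahcc1 differed by -0.11 ± 0.33 (edgeR adjusted p = 0.944), Nup98 by -0.26 ± 0.47 (0.879), Prr12 by -0.00 ± 0.55 (1.00) and Mn1 by 0.28 ± 0.54 (0.895), intervals wide enough that equal enrichment is not shown either. Without the later-numbered libraries the differences were -0.78 ± 0.33 for Bahcc1 (edgeR adjusted p = 0.204), -0.94 ± 0.29 for Nup98 (0.0527), -0.73 ± 0.39 for Prr12 (0.361) and -0.46 ± 0.36 for Mn1 (0.617), so that the sign for Mn1 turned and none was called. Nup98 had 55.1 to 328 CPM in adult IP (median 240.3) and 14.0 to 307.5 CPM in young IP (median 240.1).

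Without the later-numbered libraries 28 members fell in the same test (2.03% of 16872 genes were called lower and 2.19% higher) and none rose, and the 19 were all among the 28. The members' median was then -0.76, against 0.00 over all genes. Kifc3 was at -3.27 ± 0.15, Ubr4 at -2.71 ± 0.23 and A130040M12Rik at -2.37 ± 0.21. Bcor (-1.49 ± 0.32, edgeR adjusted p = 0.00520), Tnrc18 (-1.32 ± 0.31, 0.00890) and Gse1 (-1.07 ± 0.28, 0.0231) were among those called after this removal and not before it.

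**Figure D3:**
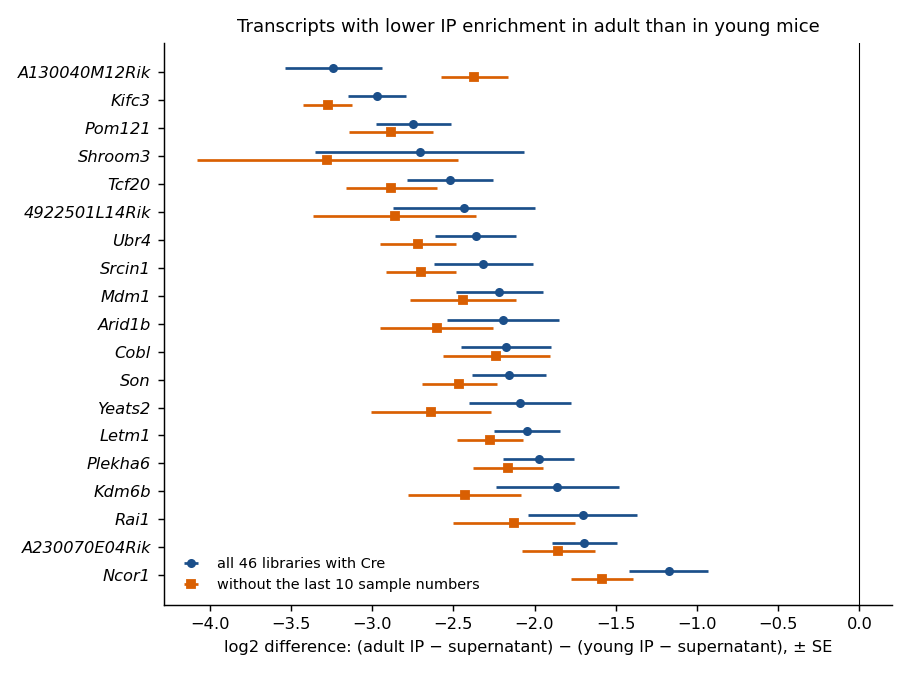
The 19 transcripts whose IP enrichment was lower in adult than in young mice, as the log2 difference of enrichment with its SE, from all 46 libraries with Cre (blue) and without the last 10 sample numbers (orange). All 19 lie below zero in both fits, between -3.24 and -1.17 in the first.

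Compared within the IP alone, 23 members were lower in adult than in young mice and none was higher (6.82% of 15890 genes were called lower and 8.3% higher); without the later-numbered libraries 32 were lower and none higher (4.19% and 4.85% of 16240 genes). For 9 members all 11 adult IP libraries lay below all 12 young ones (1.01% of 14013 genes at a mean of 1 CPM or more), and for 26 below the 7 earlier-numbered ones (1.95% of 13991). In the supernatant 26 members were higher in adults and 13 lower (18.9% and 17.2% of 16286 genes), shares not far from the background. Among those higher were Cobl, an actin nucleator, at 0.65 ± 0.11, Nup98 at 0.61 ± 0.10 and the zinc finger protein gene Ikzf4 at 0.61 ± 0.09 on the log2 scale. Kank1 fell by 0.96 ± 0.07 there and Suv420h2, a histone H4 lysine methyltransferase, by 0.64 ± 0.08. Markers of oligodendrocytes, 8 genes in the table, summed to 1256 to 4047 CPM in adult IP and 3572 to 5491 CPM in young IP, and to 2091 to 4560 CPM in adult and 4518 to 6829 CPM in young supernatants. In such tissue, fewer cells of a type and less RNA per cell cannot be told apart. Of the 19 members whose IP enrichment was lower in adults, 10 were higher in adult than in young supernatants, 3 were lower and 6 were not called. Those lower were Srcin1 (-0.34 ± 0.10), A230070E04Rik (-0.28 ± 0.07) and A130040M12Rik (-0.26 ± 0.08). A higher adult supernatant by itself lowers the difference in enrichment that chose the 19. An excess of members higher in adult supernatants is thus partly built in, and nothing is read from these counts. The part of the oligodendrocyte markers in the IP values was not tested.

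9630013A20Rik, a long noncoding RNA known from oligodendrocytes that are beginning to form myelin, followed age in both fractions. It had 0.255 to 3.87 CPM in adult IP and 28.3 to 67.4 CPM in young IP, and 0.948 to 2.41 CPM in adult supernatants against 21.4 to 34.8 CPM in young ones. Neither fraction overlapped between ages. The adult minus young difference was -5.17 ± 0.46 on the log2 scale in the IP and -3.93 ± 0.15 in the supernatant, both called, and the difference in enrichment, -1.21 ± 0.42, was not called (edgeR adjusted p = 0.0926). Among the 10 largest falls in the IP, 9630013A20Rik was the only one whose difference in enrichment was not called. The other 9 were A130040M12Rik, Kifc3, Srcin1, Shroom3, Tcf20, Pom121, Ubr4, Arid1b and Son. Of these, Srcin1 and A130040M12Rik were also called lower in adult supernatants, by far less.

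**Figure D4:**
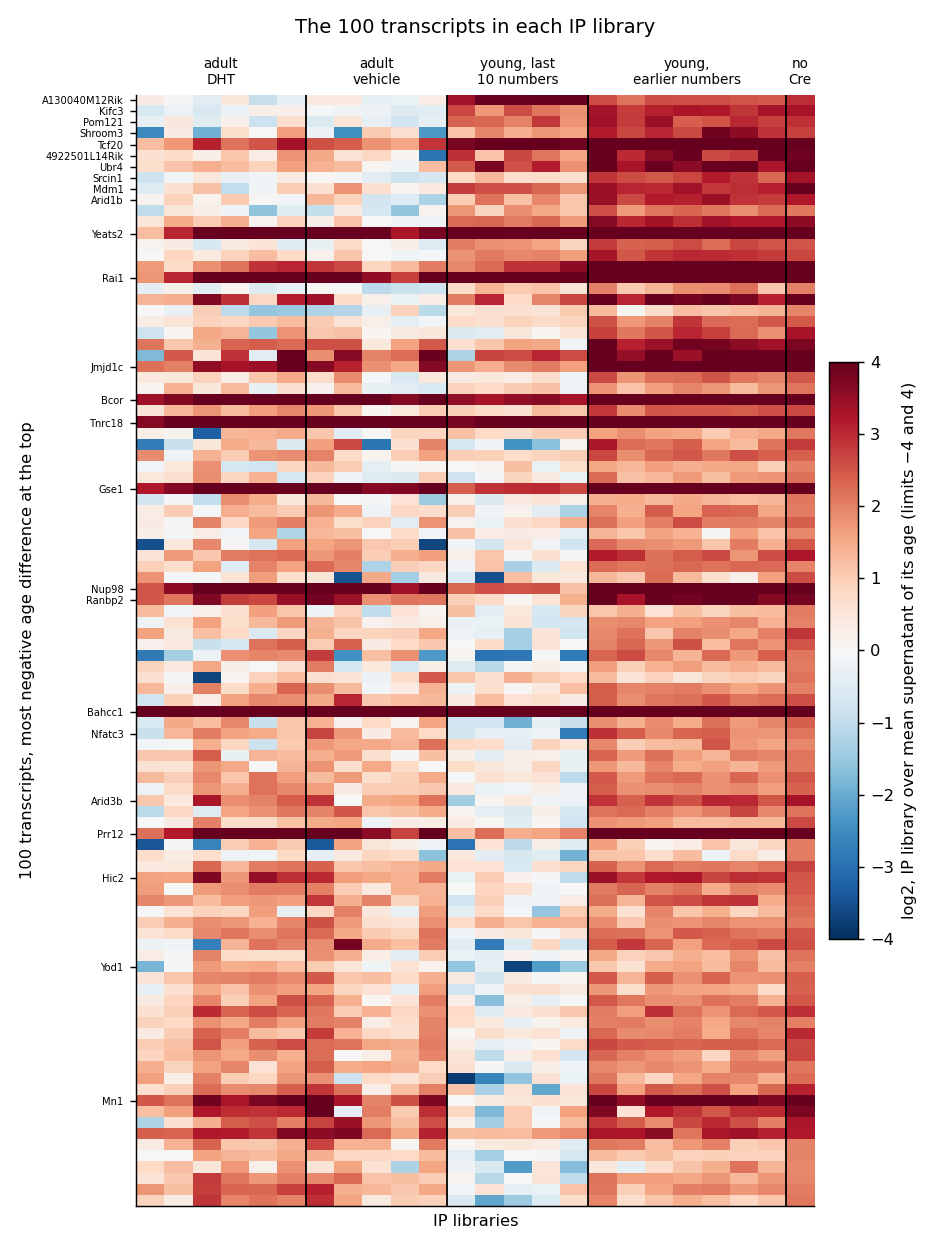
log2 of each IP library over the mean supernatant of its age (rows, 100 transcripts ordered by their fraction by age difference; columns, IP libraries; names are given for the highest ratios and the largest called changes; colours limited to -4 and 4; 0.5 CPM added; the control is set over its own supernatant; later- and earlier-numbered blocks hold DHT before vehicle). The upper rows are near 0 in adult libraries, many lower rows are near 0 in the later-numbered young libraries, and a few rows such as Bahcc1 are high throughout.

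Within young mice the later-numbered IP libraries differed from the earlier-numbered ones in most members. The contrast was examined after the libraries had been seen to stand apart, as the term for the last 10 numbers in the fit of 23 IP libraries with age and exposure as groups. Because the control that chose the members is young and earlier-numbered, the choice favours falls over rises in this contrast. The imbalance of directions in the counts is therefore not read as a result. Of the 100 members 61 were lower in the later-numbered libraries and 1 was higher (1.84% and 0.913% of 15890 genes; 355 lower and 53 higher with library totals, against 292 and 145), with a median log2 difference of -1.61 against -0.03 over all genes. For 76 members all 5 later-numbered libraries lay below all 7 earlier-numbered ones, against 4.93% of 14085 genes at a mean of 1 CPM or more, and for 1 they lay above (3.83%). In the supernatant the same contrast called 6 members lower and 4 higher (15.9% and 7.48% of 16286 genes), shares below the background in each direction.

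Mn1 had 44.2, 58.5 and 64.1 CPM in the later-numbered young DHT IP libraries and 71.0 and 61.9 CPM in the later-numbered young vehicle ones, against 534 to 1105 CPM (median 775) in the 7 earlier-numbered ones. Its difference was -3.64 ± 0.43 (edgeR adjusted p = 3.64e-05), and the later-numbered libraries came close to the young supernatants, which held 38.2 to 53.2 CPM. Nup98 had 31.1, 38.0 and 36.7 CPM in the later-numbered DHT libraries and 37.1 and 14.0 CPM in the later-numbered vehicle ones, against 239.6 to 307.5 CPM in the earlier-numbered ones, a difference of -3.08 ± 0.33 (edgeR adjusted p = 1.99e-05). Prr12 (-3.46 ± 0.46), Hic2 (-3.14 ± 0.44), Nfatc3, a calcium-regulated transcription factor (-3.13 ± 0.53), the nucleoporin Ranbp2 (-3.07 ± 0.37), Arid3b (-3.01 ± 0.50), the deubiquitinase Yod1 (-3.00 ± 0.66), Jmjd1c (-2.90 ± 0.36) and Gse1 (-2.88 ± 0.31) complete the 10 largest falls among those called. Of the 16 members on the list of chromatin and transcription regulators 12 fell, and of the 58 others on that list 10 fell and none rose.

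A130040M12Rik was the exception. It had 456, 694 and 683 CPM in the later-numbered DHT libraries and 731 and 824 CPM in the later-numbered vehicle ones, against 202 to 271 CPM in the earlier-numbered ones, and rose by 1.52 ± 0.20 on the log2 scale (edgeR adjusted p = 8.78e-05). Ubr4 (-0.88 ± 0.30, edgeR adjusted p = 0.111), Yeats2 (-0.77 ± 0.38, 0.321) and Pom121 (-0.59 ± 0.27, 0.270), all lower with age, gave no call between the numbered sets. Gnrh1 was at 2816 to 6817 CPM in the later-numbered and 1751 to 3514 CPM in the earlier-numbered young IP libraries, with a difference of 0.62 ± 0.47 (edgeR adjusted p = 0.633). Sums of neuron markers were 5241 to 6051 CPM in later-numbered and 5351 to 6066 CPM in earlier-numbered young IP libraries, and those of oligodendrocyte markers 3702 to 5491 CPM and 3572 to 5355 CPM.

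The age test and the contrast between numbered sets share the young libraries, so values are given side by side and no overlap is drawn from them. Kifc3 stood at -2.97 for age and -0.85 ± 0.18 between the sets, Ubr4 at -2.36 and -0.88, and Srcin1 at -2.32 and -1.79 ± 0.22. Mn1 stood at 0.28 and -3.64, Nup98 at -0.26 and -3.08, Ranbp2 at -0.26 and -3.07, and Bahcc1 at -0.11 and -1.38 ± 0.33; without the later-numbered libraries the age values of these 4 were -0.46, -0.94, -0.83 and -0.78.

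**Figure D5:**
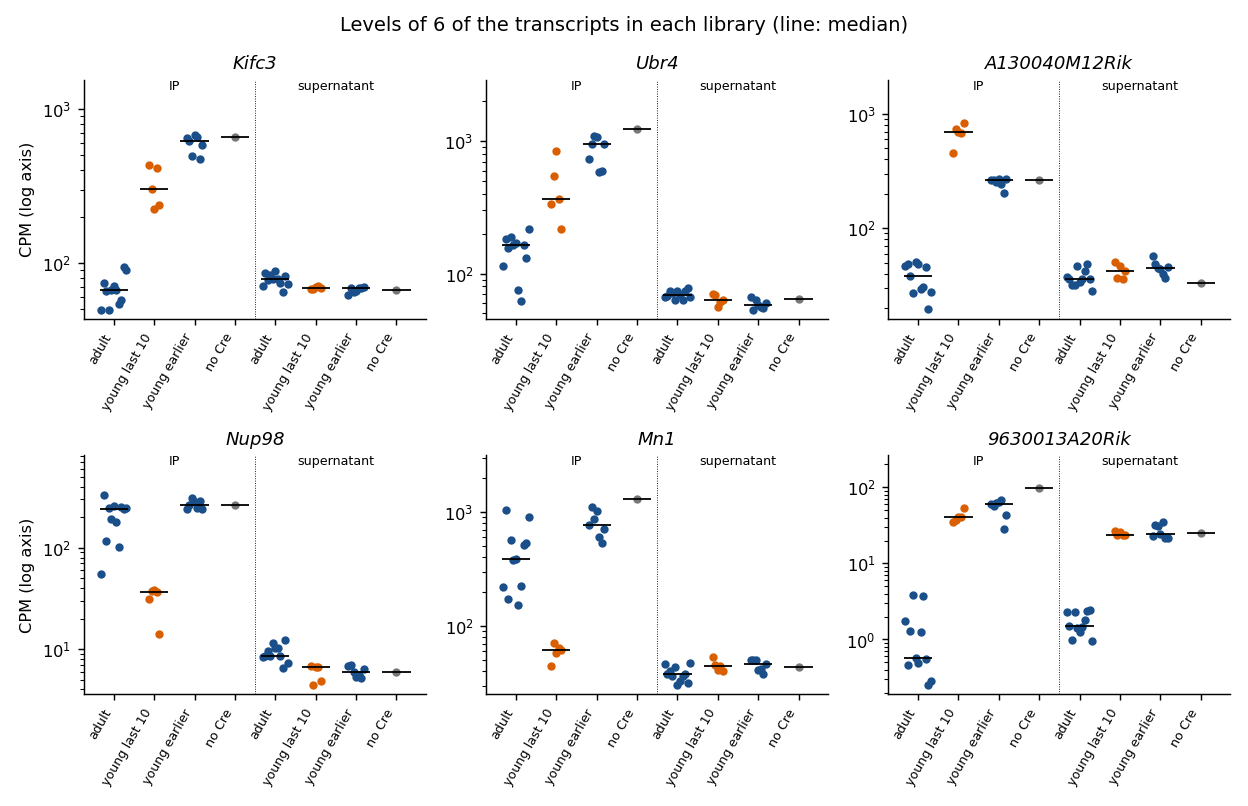
CPM of Kifc3, Ubr4, A130040M12Rik, Nup98, Mn1 and 9630013A20Rik in every library (points, log axis; line, median), by fraction, age and sample number. Kifc3 is at supernatant level in adult IP (49.4 to 93.8 CPM), Mn1 is near it in later-numbered young IP (44.2 to 71.0 CPM), A130040M12Rik is highest in later-numbered young IP (456 to 824 CPM), and 9630013A20Rik is low in adults in both fractions.

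The adult IP libraries also varied widely among themselves, and their members' sum of 3760 to 11612 CPM was spread over replicates of both exposures. Tet2 ran from 17.1 to 104 CPM in adult DHT IP (median 55.9) and from 17.9 to 111 CPM in adult vehicle IP (median 28.5), and it was called higher in the IP than in the supernatant in both adult groups (log2 2.06 ± 0.43 and 1.76 ± 0.47) but in neither young group (0.53 ± 0.42 and 0.98 ± 0.42). The difference between ages was 1.15 ± 0.43 and was not called (edgeR adjusted p = 0.121). Without the later-numbered libraries Tet2 was called higher in young DHT (1.52 ± 0.47, edgeR adjusted p = 0.0329) and young vehicle mice (1.31 ± 0.40, 0.0222) as well, and the difference between ages was 0.45 ± 0.39 (0.662).

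Prenatal DHT changed none of the members at an adjusted p below 0.05. In adult IP no member was called, and 2 were below an unadjusted p of 0.05: Rab3d, a small GTPase of secretory vesicles, at -1.16 ± 0.40 (edgeR adjusted p = 0.401), and Son at 0.67 ± 0.32 (0.589). In young IP 1 member was below an unadjusted 0.05, AI414108 at -1.37 ± 0.56 (edgeR adjusted p = 1.00). In adult supernatants 2 members were below it, 4922501L14Rik at 0.34 ± 0.15 (edgeR adjusted p = 1.00) and Mn1 at 0.23 ± 0.10. In young supernatants 4 were, with the smallest p for A230070E04Rik at -0.28 ± 0.10 (edgeR adjusted p = 0.976). Of all genes, 0.00629% were called lower in adult IP and 0% in the other 3 comparisons, and DESeq2 and limma-voom called no member either. The members' median log2 difference of DHT minus vehicle was 0.09 in adult IP, -0.19 in young IP, 0.02 in adult supernatants and -0.04 in young supernatants. Of the later-numbered young IP libraries 3 were DHT and 2 vehicle, and without them the young IP median was 0.02. The IP enrichment differed between exposures in no member (edgeR; 1 member below an unadjusted 0.05; 0.072% of all genes called higher and 0.066% lower). About 1 in 20 genes falls below an unadjusted 0.05 by chance, so the counts at an unadjusted p are not read as a result.

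Of the 100 members, 98 were found in GENCODE M21, 88 by their own symbol and 10 by a synonym, and 97 were protein coding. They lay on 20 chromosomes, with 12 on chromosome 11, 10 on chromosome 9 and 9 on chromosome 10. For 37 members an exon of their gene overlapped an exon of a gene on the opposite strand, Srebf1 at Rai1 and Donson at Son among them, and for 5 an exon on the same strand. The library kit named in the labels does not mark the strand, so reads in such stretches cannot be assigned to either gene. Bahcc1 (chr11:120232947-120292296, plus strand), Nup98 (chr7:102119398-102210176, minus strand) and Mn1 (chr5:111417362-111457033, plus strand) had no such overlap on the opposite strand. Bahcc1 was, however, among the 5 members with an exon overlap on the same strand, and Nup98 and Mn1 were not.

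Library totals were 28136004 to 55479453 counts over all 48 libraries. Gnrh1 reached 664 to 16067 CPM in the 23 IP libraries with Cre and 19.9 to 50.4 CPM in the 23 supernatants. Neuron markers summed to 5241 to 8514 CPM in IP and 4951 to 6495 CPM in supernatants with Cre. In the control without Cre they summed to 6065 CPM in the IP against 6138 CPM in its supernatant, and oligodendrocyte markers to 5403 against 6242 CPM.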

How the data were processed

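The 48 libraries are RNA-seq of IP and supernatant RNA from mouse preoptic area. The deposited table holds estimated counts per gene symbol, of which 98.49% are whole. The submitters' processing notes name, for the authors' steps, mm10, the aligners TopHat2 (2.0.13) and Bowtie2 (2.2.1), the counter HTSeq (0.6.1), Cufflinks with Cuffdiff (2.1.1), DESeq2 (1.14.1) and FastQC (0.11.3). The tool behind the counts and the annotation are not stated there. Per the labels' protocols, libraries were made with a SMARTer v4 poly(A) kit, which marks no strand.

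CPM is counts over the library total. Counts were rounded and tested with edgeR 4.0.16 (R 4.3.3), using quasi-likelihood with TMM scaling, robust dispersion and filterByExpr at a minimum count of 10 and total of 15. A fit of the 46 libraries with Cre gave fraction contrasts, and fits of 23 IP and 23 supernatant libraries gave age and exposure contrasts. P-values were Benjamini-Hochberg adjusted over all genes tested, with calls below 0.05. The 2 libraries without Cre entered no test. Fits were tested on simulated data. DESeq2 1.42.0 and limma 3.58.1 were alternatives, with other scalings and filters, single libraries left out and the last 10 sample numbers modelled or left out.

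Members and gene lists were chosen with earlier results of these data known. Named genes are the 10 highest ratios and levels without Cre, up to 10 largest called changes per direction and comparison (the smallest p where none was called), list members with the highest levels and ranks 96 to 105; other names were chosen after their values were seen. Since nothing says that libraries come from separate animals, p-values measure the spread between libraries, which may be technical. Library totals ran from 28136004 to 55479453 counts, and intervals cover counting error only.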

Additional observations from a re-analysis of the deposited data

Results flagged for a closer look

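Among 104 sets of values from 1 transcript in 1 group, 3 held a library far from the others, where chance gives about 1 in 20. Tet2 had 110.9 CPM in adult vehicle IP replicate 1, against a group median of 28.5 CPM. 9630013A20Rik had 3.704 CPM in adult vehicle IP replicate 4, against a median of 0.55 CPM. Gnrh1 had 6817 CPM in young vehicle IP replicate 6, a later-numbered library, against a median of 3214 CPM.

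The IP enrichment, as a log2 fold change over the supernatant, differed between adult and young mice by the test of the difference itself (edgeR, adjusted over all genes) in these 10 transcripts. The difference was -3.24 for A130040M12Rik (edgeR adjusted p = 1.96e-10), -2.97 for Kifc3 (9.75e-17), -2.75 for Pom121 (1.49e-11), -2.71 for Shroom3 (0.00774) and -2.52 for Tcf20 (6.22e-09). It was -2.43 for 4922501L14Rik (edgeR adjusted p = 0.000484), -2.36 for Ubr4 (6.22e-09), -2.32 for Srcin1 (9.88e-07), -2.22 for Mdm1 (1.66e-07) and -2.20 for Arid1b (5.02e-05).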

How the results depend on the processing

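Of the 46 genes and comparisons that were tried, 45 kept their direction and call under the alternatives run and none reversed. Yod1 between later- and earlier-numbered young IP libraries weakened to -2.61 (edgeR adjusted p = 0.0673) with 1 library left out. The 46 are part of the named results. Changes of sign or call without the later-numbered libraries given above, as for Mn1, Tet2 and Bcor, are not counted among them. Leaving out single libraries gave 97 to 98 members higher in the IP over 4 conditions, 62 to 69 in adult DHT, 52 to 66 in adult vehicle, 73 to 87 in young DHT and 83 to 91 in young vehicle mice. It gave 19 to 21 members for the age difference in enrichment, 21 to 24 for age in the IP, 33 to 41 for age in the supernatant and 44 to 59 of 62 between numbered sets in young IP. Between numbered sets in the supernatant, 10 members were called, 19 with limma-voom and 5 to 13 with single libraries left out, the 5 without young vehicle supernatant replicate 5; the cause was not tested. A floor of 50 CPM kept 59 of the 100 members, 5 CPM added kept 87 and TMM-scaled values kept 99. TMM-scaled values moved the median summed level in adult vehicle supernatants to 1885.78 CPM, against 1951.52.

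Over all genes, DESeq2 called 112 higher and 39 lower with DHT in adult IP, where edgeR called 1, and no member was among them. With limma-voom the median of all genes for IP over supernatant was -0.22, and 94 members were higher and none lower. Replicate numbers are shared between fractions, and the labels state no pairing. Of 23 IP and supernatant libraries matched by number, 11 correlated above 0.1. Among the 5 or 6 numbers of each group, 17 correlated best with their own. The main tests do not use this pairing, and fewer members were called higher in the IP when it was used. With the replicate block, 91 members were higher in the IP over 4 conditions, 57 in adult DHT, 55 in adult vehicle, 63 in young DHT and 77 in young vehicle mice, and 21 were lower for the age difference. The shares of all genes called with the block or with limma-voom are not given here. The lower counts are therefore not read as particular to the members. The control without Cre is a single pair of libraries, so its levels have no replicate check.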
